A study of Bos taurus with 15 samples.

Results

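Protamines and transition proteins are the small basic proteins that package the DNA of the sperm head. The 5 genes examined here are the protamine genes PRM1, PRM2 and PRM3 and the transition protein genes TNP1 and TNP2. They were chosen by name, and their probes were found through the gene symbol, gene number, accession or description in the scanner files. Of these 5 genes, 4 had a probe among the 15078 genes named on the array, each with 1 probe printed in 2 spots. PRM3 had no matching probe and was not measured. PRM1, TNP1 and TNP2 were among the 12825 genes tested, and PRM2 was not.

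Testis tissue came from 15 cattle at slaughter. Of these, 8 animals (numbers 25 to 32) received prednisolone, a synthetic glucocorticoid, by mouth at 30 mg per head each day for 35 days. The other 7 animals (numbers 17, 18 and 20 to 24) were controls that received none. The labels give no age, breed, genotype or pairing, and each animal had 1 single-colour Agilent array of total testis RNA. A level below is the log2 processed signal of a probe minus the 75th percentile of its own array, so a level of 0 lies at that percentile.

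In spermatids, the haploid cells that become sperm, most histones are first displaced by transition proteins and then by protamines. The genes are transcribed in round spermatids, and their mRNAs are stored without translation until the spermatid elongates. TNP1 and TNP2 encode the main transition proteins. PRM1 encodes protamine 1, on which bull sperm rely almost wholly, PRM2 encodes protamine 2, which is abundant in mouse and human sperm, and PRM3 encodes an acidic spermatid protein in mouse that is not a DNA-packaging protamine. In the RefSeq gene table of assembly ARS-UCD2.0, TNP2, PRM3, PRM2 and PRM1 stand next to each other in that order, and TNP1 lies elsewhere.

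The array of prednisolone 30 stood apart. Of its probes, 36.5% were well above background and its 75th percentile was 49.8 intensity units, against 82.2% to 89.9% and 1220 to 2780 units on the other 14 arrays. Its scanner values and its column in the authors' deposited table correlated at 0.0239 after centring each gene, against 0.836 to 0.973 for the other animals. Control 17 also differed from its group: its summed signal over 7 matrix genes was 28.9 times the 75th percentile, against 5.33 to 9.09 in prednisolone animals and 5.62 to 8.88 in the other 6 controls. Its 7 peritubular and smooth muscle genes summed to 66.6, against 14.4 to 30.7 in prednisolone animals and 18.5 to 29.3 in the other controls. All 13 spermatocyte genes and all 14 Sertoli cell genes on the array passed the filter, as did 12825 of all 15078 named genes. All 7 matrix genes and all 10 macrophage genes passed it too, so passing alone does not identify the tissue. Values are therefore given with and without these animals where they matter.

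PRM1, TNP1 and TNP2 had no detectable difference between prednisolone and control testes after correction for all probes tested. TNP2 was the member with the largest difference, 0.44 log2 units higher in prednisolone animals (standard error 0.22, 1.36-fold). PRM1 differed by 0.13 and TNP1 by 0.06 log2 units. In limma over all 15 arrays, 0 of the 3 tested members passed an adjusted p of 0.05, where 0% of all 12825 genes did. The smallest adjusted p among all genes was 0.884. At an unadjusted p under 0.05 limma called 0 of the 3 members on 15 arrays, against 2.72% of all genes (349, of which 216 were higher, 1.68% of all). Without prednisolone 30 it called TNP2, against 4.23% of all genes (543). TNP2 was higher in that call, as were 2.6% of all genes (333). Testis was measured as a whole, so the number of spermatids and the amount of these RNAs per spermatid cannot be told apart.

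**Figure D1:**
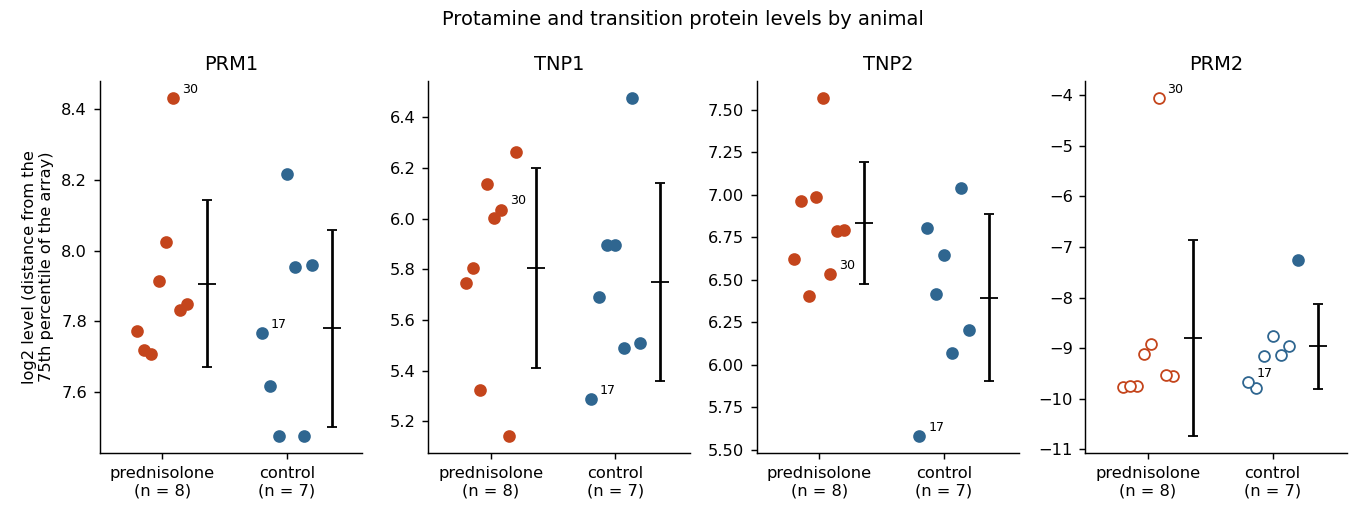
Log2 level of the 4 members with a probe, 1 point per animal, for 8 prednisolone and 7 control animals. The black dash and bar are the mean and SD of each group, open points were not well above background, and animals 30 and 17 are marked. The groups overlap for every member, and control 17 has the lowest TNP2 level at 5.58.

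Among the transition proteins, TNP2 gave the lowest level at 6.40, a median of 6.79 and the highest at 7.57 in prednisolone testes, against 5.58, 6.42 and 7.04 in control testes. The lowest control was control 17 and the highest prednisolone animal was prednisolone 29. The groups overlapped, although all 8 prednisolone animals lay above the control mean. The group means were 6.83 ± 0.36 for prednisolone (SD, n = 8) and 6.39 ± 0.49 for control (SD, n = 7). The 95% interval of the difference ran from -0.02 to 0.90, with a limma p of 0.0617 before and 0.884 after adjustment. An exact two-sided permutation test over all 6435 splits of the animals gave p = 0.0671.

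The size of the TNP2 difference depended on which animals and values were used, and its sign did not change. With quantile normalization in place of the 75th percentile it was 0.23 (95% interval -0.23 to 0.70). Without prednisolone 30 it was 0.48 (95% interval 0.03 to 0.94, limma adjusted p = 0.965, exact permutation p = 0.0624). Without control 17 it was 0.30, and without both animals 0.35. Above the control mean then lay 7 of 8 prednisolone animals without control 17, and 6 of 7 without both. In the authors' deposited table the difference was 0.41 (95% interval 0.13 to 0.68). There limma gave p = 0.00589 before adjustment and 0.837 after it, and the exact permutation test gave p = 0.0028. In that table the level in prednisolone animals was 17.50 at the lowest and 18.17 at the highest, against 16.92 and 17.65 in controls, on a log2 intensity scale. At an unadjusted p under 0.05 limma called TNP2 in that table, beside 5.61% of all genes (719) in either direction and 3.03% (389) higher. Control 17, the animal lowest in TNP2 in both sources, was also the one with the high matrix and smooth muscle sums, and their part in the result was not tested.

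The 9 arrays of the first scan day held both groups and gave a TNP2 difference of 0.40, or 0.47 without prednisolone 30. With the slide as a block the difference was 0.37, or 0.58 without prednisolone 30. Only slides 1 and 4 held both groups, so the block estimate rests on their arrays. Slides 2 and 3 held controls only, and slides 5, 6 and 7 held prednisolone animals only. Each of scan days 2 to 5 held 1 group, so there batch and treatment cannot be told apart. On slide 1, which held 2 animals of each group, the TNP2 difference was 0.60. On slide 4, which held prednisolone 29, prednisolone 30 and control 23, it was 0.01, and without prednisolone 30 it was 0.53 between the 2 animals left. Slides 1 and 4 held too few animals for a test, and their differences are values only. In limma the unadjusted p was 0.286 within the first scan day and 0.332 with the slide as a block, and without prednisolone 30 it was 0.194 and 0.0743.

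TNP1, the other transition protein gene, had the lowest level at 5.14, a median of 5.90 and the highest at 6.26 in prednisolone testes, against 5.29, 5.69 and 6.48 in control testes. The lowest and the highest animal overall were therefore prednisolone 31 and control 23. The group means were 5.81 ± 0.40 for prednisolone (SD, n = 8) and 5.75 ± 0.39 for control (SD, n = 7). The difference was 0.06 with a 95% interval from -0.38 to 0.49 (limma adjusted p = 0.946, exact permutation p = 0.781). In the authors' deposited table the TNP1 difference was -0.04.

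The low TNP1 value of prednisolone 31 came from spots that differed from each other. Its first TNP1 spot read 98500 intensity units and its second 43400, which put them 1.18 log2 units apart. Over all arrays the TNP1 spots differed by a median of 0.09 log2 units and the TNP2 spots by 0.10. Both medians lay below the 0.13 found over all tested probes.

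Among the protamines, PRM1 had the lowest level at 7.71, a median of 7.84 and the highest at 8.43 in prednisolone testes, against 7.47, 7.77 and 8.22 in control testes. The highest prednisolone value belonged to the dim array of animal 30, and the other 7 prednisolone animals lay between 7.71 and 8.02, inside the control range. The group means were 7.91 ± 0.24 for prednisolone (SD, n = 8) and 7.78 ± 0.28 for control (SD, n = 7). The difference was 0.13 with a 95% interval from -0.19 to 0.45 (limma adjusted p = 0.884, exact permutation p = 0.369). Without prednisolone 30 it was 0.05, and in the authors' deposited table it was -0.11.

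PRM1 sat at the top of the scanner's range, and its spots gave different readings. The first spot lay at array row 516 and column 73, and the second at row 519 and column 7, on a grid of 532 rows and 85 columns. The first spot was saturated on 3 of 8 prednisolone arrays (animals 26, 31 and 32) and 2 of 7 control arrays (animals 17 and 18). On 4 of these 5 arrays it was the only saturated spot among the 42990 spots read. The array's built-in control spots were not counted. The second spot was saturated on none.

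Without prednisolone 30, the first PRM1 spot read 493000 to 777000 intensity units in prednisolone animals, against 309000 to 715000 in controls. The second spot read 207000 to 650000 in prednisolone animals, against 277000 to 620000 in controls. With animal 30 included, the first spot was the brighter one on 6 of 8 prednisolone arrays and 6 of 7 control arrays. The spots were over 2-fold apart on 4 prednisolone arrays and 1 control array. Their median distance of 0.71 log2 units was larger than that of 99.8% of all tested probes.

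The PRM1 spots also gave group differences of opposite sign. Without prednisolone 30 the first spot alone gave 0.37 (95% interval -0.04 to 0.77) and the second alone -0.26 (95% interval -0.71 to 0.18), both in limma. The mean over both spots was therefore nearer to 0 than either spot was.

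Signal correction near the array's edge differed between arrays. The scanner software divides the signal by a fitted surface, a step called detrending. At the second PRM1 spot the processed signal was 1.16 to 2.41 times the mean signal in prednisolone animals other than animal 30, and 1.15 to 5.34 times in controls. Over all bright spots the median of this ratio was 0.876 to 0.968 on the same arrays. In control 22, where the PRM1 ratio was 5.34, the median ratio of the 8 bright spots within 2 rows and columns was 4.95. On the array of prednisolone 30 the second PRM1 spot had a mean signal of 3150 and a processed signal of 209000, a ratio of 66.3, while the first spot had a processed signal of 955.

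**Figure D2:**
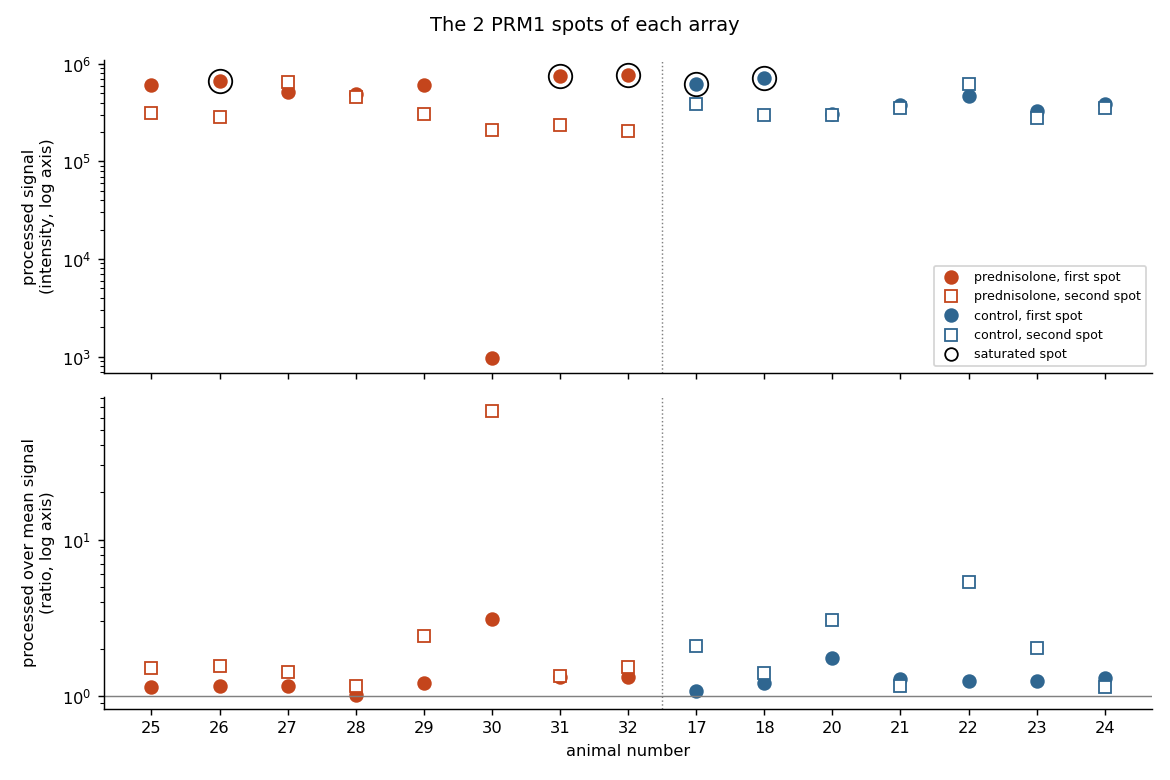
Processed signal in intensity units (upper panel, log axis) and processed over mean signal (lower panel, log axis) of the first and the second PRM1 spot on each array, with 8 prednisolone animals left of 7 control animals. Rings mark saturated spots, and the second spot of prednisolone 30 stands out with a ratio of 66.3.

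Values without detrending were computed from the mean signal minus the local background. Without prednisolone 30, PRM1 then differed by 0.31 (95% interval -0.13 to 0.76) and TNP2 by 0.61 (95% interval 0.13 to 1.1, limma adjusted p = 0.925, exact permutation p = 0.0303). TNP1 differed by -0.02. The 14 PRM1 levels spread more without detrending, over 7.25 to 7.81 in prednisolone animals and 6.30 to 7.91 in controls.

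**Figure D3:**
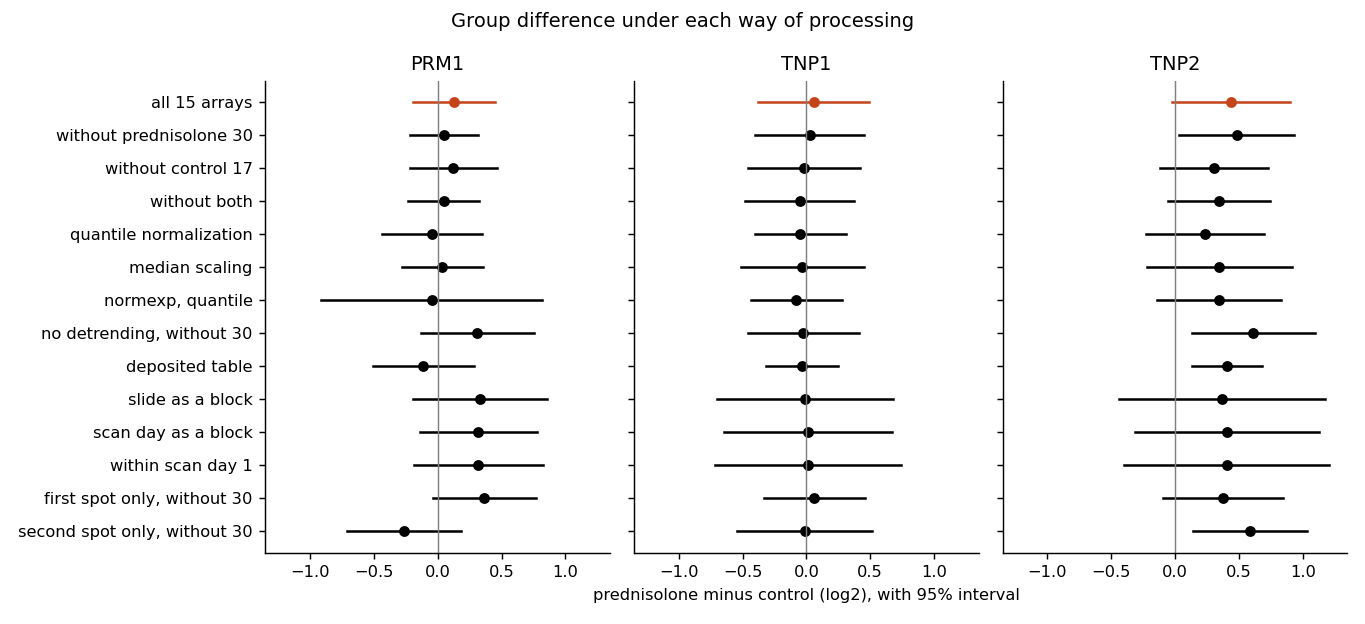
Prednisolone minus control difference (log2) with its 95% interval from limma for PRM1, TNP1 and TNP2 under 14 ways of processing, with all 15 arrays at the top. TNP2 stays to the right of 0 in every row shown, and PRM1 and TNP1 fall on both sides of 0.

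PRM2 was not well above background in either group. Its first spot read 2.27 to 4.1 intensity units in prednisolone animals and 2.62 to 5.11 in controls. Its second spot read 2.02 to 3.95 in prednisolone animals and 2.29 to 26 in controls. The dimmest spot that counted as well above background read 8.99 to 17 units on the 14 arrays other than that of prednisolone 30. Of the 30 PRM2 spots, 1 was marked well above background, the second spot of control 24. No fold difference is given for PRM2, since both groups lie below what its probe can measure. The part of the transcript that this probe covers is not known here. Low PRM2 RNA and a probe that does not detect it cannot be told apart.

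The spread between animals and the relations between members were examined without the dim array. Over the 14 animals without prednisolone 30, the residual SD within groups was 0.21 for PRM1, 0.40 for TNP1 and 0.43 for TNP2, beside a median of 0.31 over all tested probes. The PRM1 value is limited by saturation on 5 arrays and by the distance between its spots: without detrending and without prednisolone 30 its SD was 0.19 in prednisolone animals and 0.57 in controls, and on all arrays with saturated spots left out it was 0.55 and 0.42. TNP1 and TNP2 correlated across these animals with r = 0.603 and Spearman's rho 0.701. The permutation p of r was 0.0215 before and 0.0646 after adjustment over the 3 pairs of members. Without the 2 animals farthest from the TNP1 median, control 23 and prednisolone 31, r was 0.736 (adjusted permutation p = 0.017). Within the first scan day r was 0.543 over 8 animals (adjusted exact permutation p = 0.486). In the authors' deposited table r was 0.077, so the relation did not hold there.

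No relation of PRM1 with either transition protein gene was detected. Its r was -0.13 with TNP1 and 0.0406 with TNP2 over the 14 animals, and the adjusted permutation p was 0.893 for both. Its r with both was further below 0 in the authors' deposited table, at -0.49 for TNP1 and -0.416 for TNP2 (adjusted permutation p = 0.196 and 0.203).

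A list of 41 other genes of round and elongating spermatids served as a measure of how much spermatid RNA an array held. It includes acrosome, tail and sperm glycolysis genes, and 39 of them were tested. The mean of these 39 genes, each centred over all arrays, was lowest in control 17 at -0.78. It averaged 0.06 ± 0.19 in prednisolone animals and -0.06 ± 0.37 in controls (SD, n = 8 and 7). Without control 17 and prednisolone 30 the group difference of this mean was 0.03.

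Of the 3 members, TNP2 had the highest correlation with this spermatid mean. Over 14 animals r was 0.861 for TNP2 (rho 0.89, adjusted permutation p = 0.00048) and 0.721 for TNP1 (rho 0.811, adjusted permutation p = 0.00183), over 3 relations. For PRM1 r was 0.0842 (rho 0.156, adjusted permutation p = 0.77). Leaving out control 17 and control 23, the 2 animals farthest from the median of the spermatid mean, gave r = 0.78 for TNP2, 0.661 for TNP1 and 0.449 for PRM1. Within the first scan day, over 8 animals, r was 0.915 for TNP2 and 0.699 for TNP1 (adjusted exact permutation p = 0.0577 for both) and -0.104 for PRM1. With quantile normalization r was 0.829 for TNP2 (adjusted permutation p = 0.00282), 0.453 for TNP1 and -0.356 for PRM1 (adjusted permutation p = 0.14 for both). In the authors' deposited table r was 0.644 for TNP2 (adjusted permutation p = 0.0225) and 0.26 for TNP1 (adjusted permutation p = 0.297). For PRM1 it was -0.665 there (adjusted permutation p = 0.00462). PRM1 was thus lower where the spermatid mean was higher in that table, and no such relation was detected in the scanner values.

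**Figure D4:**
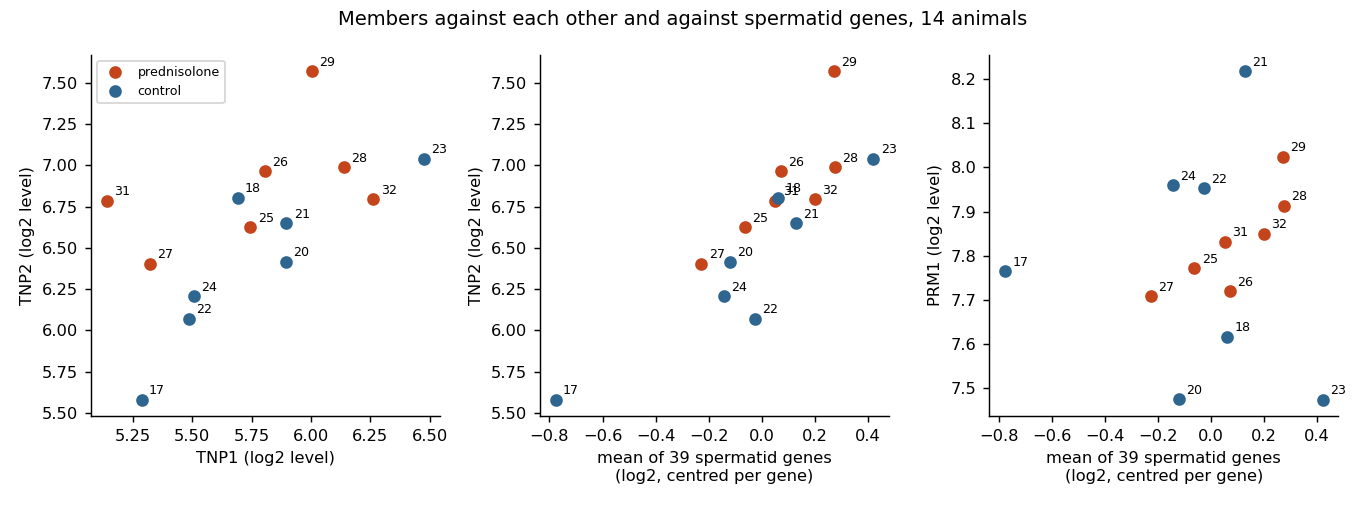
TNP2 against TNP1 (left), and TNP2 and PRM1 against the mean of 39 spermatid genes (middle and right), all on log2 scales, 1 point per animal for 7 prednisolone and 7 control animals. TNP2 is higher in animals with a higher spermatid mean (r = 0.861), and PRM1 shows no such pattern (r = 0.0842).

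The TNP2 difference was also taken relative to the spermatid mean of the same array, a comparison added after the values had been seen. TNP2 minus that mean was 6.78 ± 0.23 in prednisolone animals and 6.46 ± 0.21 in controls (SD, n = 8 and 7), and all 8 prednisolone animals lay above the control mean. The difference was 0.32 (95% interval 0.01 to 0.63), and without control 17 and prednisolone 30 it was likewise 0.32. The exact permutation test gave p = 0.00684 for 15 animals and p = 0.0175 without both. With the same mean subtracted from every gene, limma over 15 arrays gave TNP2 an adjusted p of 0.94, or 0.0455 unadjusted. In that fit 3.13% of all genes had an unadjusted p under the threshold of 0.05, and 0% passed it after adjustment. Without prednisolone 30 limma gave an adjusted p of 0.904, or 0.0328 unadjusted, beside 3.79% of all genes under the unadjusted threshold. After quantile normalization the difference was 0.18 (exact permutation p = 0.166), and TNP2 was not among the 2.81% of genes under the unadjusted threshold. In the authors' deposited table it was 0.29 (exact permutation p = 0.0106), and TNP2 was among the 7.41% of genes under that threshold. The same measure differed by 0.00 for PRM1 and -0.06 for TNP1 over 15 animals (exact permutation p = 0.99 and 0.688).

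Ratios between members on the same array need no scaling and were not tested. The log2 ratio of TNP2 to TNP1 was 1.03 ± 0.43 in prednisolone animals and 0.65 ± 0.25 in controls (SD, n = 8 and 7), with ranges of 0.50 to 1.65 and 0.29 to 1.11. The highest, 1.65, belonged to prednisolone 31, whose TNP1 spots lay 1.18 log2 units apart. The ratio of PRM1 to TNP2 was 1.07 ± 0.42 in prednisolone animals and 1.39 ± 0.63 in controls. Without prednisolone 30, 0 of 7 prednisolone animals lay above the control mean of that ratio, and the difference was -0.43. Without control 17 as well, 1 of 7 did, and the difference was -0.30. These ratios carry the limits of PRM1, whose spots gave group differences of opposite sign. The ratio of PRM1 to TNP1 differed by 0.07. The ranges of the groups overlapped for all 3 ratios.

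Genes whose pattern over the 14 animals was most like the members were ranked by Pearson's r with the mean of the 3 tested members. The highest were PHKG2, a catalytic subunit of phosphorylase kinase (0.951), KIF17, a kinesin that in mouse carries a cofactor of protamine gene transcription (0.941), and GAK, a clathrin uncoating kinase (0.94). DPP7, a dipeptidyl peptidase (0.936), and PSMC3, a proteasome ATPase (0.934), followed. The lowest were RBBP7, a histone-binding protein (-0.939), NIPA2, a magnesium transporter (-0.923), and ATIC, an enzyme of purine synthesis (-0.921). These values rest on TNP1 and TNP2 more than on PRM1: PHKG2 had r = 0.81 with TNP1, 0.866 with TNP2 and 0.136 with PRM1.

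By the same measure the 39 spermatid genes had a median r of 0.747, and 38 of them were above 0. The median was 0.102 over all 12822 genes ranked, members left out. It was 0.287 for 13 spermatocyte genes, -0.215 for 14 Sertoli cell genes, -0.281 for 7 Leydig cell genes and -0.633 for 7 matrix genes. The points share array, scaling and the RNA mixture of the tissue, so these values describe co-variation between arrays.

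The genes that work with the members were then compared between groups. In limma over 15 arrays, 0 genes of all 4 partner lists passed the adjusted threshold, where 0% of all genes did. Over all tested genes the median difference was 0.04 and 55.4% lay above 0, both on 15 arrays. That median was 0.013 without prednisolone 30, 0.023 without control 17 and 0.006 without both animals.

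Of the 39 spermatid genes tested, 29 were higher and 10 lower in prednisolone animals by value, with a median difference of 0.12. Without control 17 the count was 18 higher and 21 lower and the median was -0.03, and without both control 17 and prednisolone 30 there were 23 higher and 16 lower, with a median of 0.05. The direction of the median thus depended on which of these animals were included. GAPDHS, a glycolytic enzyme of the sperm tail, differed by 0.62 (SE 0.31), GSG1, a germ cell protein, by 0.34 (SE 0.19) and SPATA20 by 0.40 (SE 0.23). The limma adjusted p was 0.884 for each of them. Without control 17 and prednisolone 30 they differed by 0.29, 0.24 and 0.15.

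Partners in chromatin exchange comprise testis histones and the factors that acetylate, evict or degrade histones. Of 26 tested, 9 were higher and 17 lower by value, with a median difference of -0.11, and without prednisolone 30 there were 13 on either side. H3-3B, which encodes the replacement histone H3.3, differed by -0.52 (SE 0.26). Without prednisolone 30 its difference was -0.29. With prednisolone 30 included, EPC2, a subunit of a histone acetyltransferase complex, differed by -0.36 (SE 0.21). PSME4, a proteasome activator that in mouse serves the removal of acetylated histones, differed by -0.23 (SE 0.14) on the same arrays. BRDT, a testis bromodomain protein that binds acetylated histones, was also chosen after its values were seen. It was well above background on 0 of 8 prednisolone arrays and 1 of 7 control arrays. Low BRDT RNA and a probe that does not detect it cannot be told apart here.

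Storage and translation of the members' mRNAs was represented by 23 tested genes, of which 7 were higher and 16 lower by value, with a median difference of -0.11. Without prednisolone 30 there were 12 higher and 11 lower, with a median of 0.00. The mean of this list was -0.77 in prednisolone 30, beside -0.30 to 0.18 in the other prednisolone animals. The group difference of this mean was -0.11 on all 15 arrays and -0.01 without prednisolone 30. The gene differences that follow include prednisolone 30. TARBP2, an RNA-binding protein that in mouse is needed for protamine translation, differed by -0.31 (SE 0.13). Its limma p on these 15 arrays was 0.0302 before and 0.884 after adjustment, where 2.72% of all genes had an unadjusted p under 0.05. PTBP2, a regulator of splicing in germ cells, differed by -0.25 (SE 0.19) and PAIP2, an inhibitor of the poly(A)-binding protein, by -0.26 (SE 0.22).

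Regulators of the members' transcription gave 8 higher and 8 lower of 16 tested, with a median difference of -0.01. Without prednisolone 30 there were 11 higher and 5 lower, with a median of 0.09. CREBBP, a histone acetyltransferase and coactivator, differed by -0.29 (SE 0.14). FHL5, a spermatid coactivator of CREM, differed by 0.37 (SE 0.21) and CREB1, a factor related to CREM, by 0.36 (SE 0.22). CREM itself, the activator of many spermatid genes and a gene chosen after its value was seen, differed by -0.06.

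**Figure D5:**
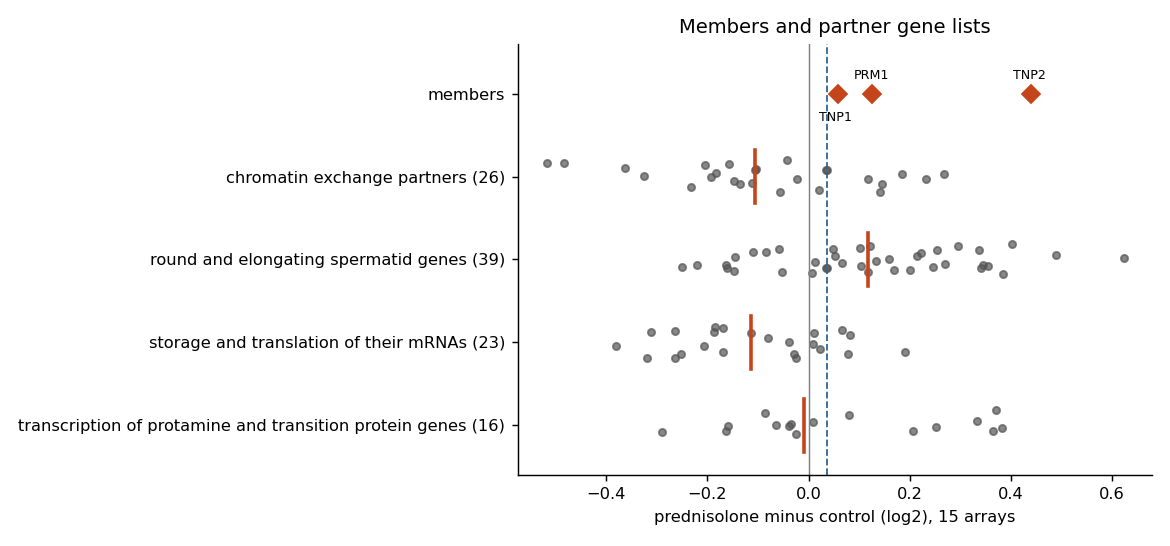
Prednisolone minus control difference (log2, 15 arrays) of the 3 tested members (diamonds) and of each tested gene in 4 partner lists (points), with the list median as a red line. The dashed line marks the median of all tested genes at 0.04, and the spermatid list has its median to the right of it at 0.12.

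Genes next to the members were compared as well. Of the 12 genes within 3 places of the protamine cluster and of TNP1 in the RefSeq gene table, 4 had a probe. SOCS1, an inhibitor of cytokine signalling on one side of the cluster, differed by -0.06 (SE 0.18) and RMI2, a genome stability protein on the other side, by 0.05 (SE 0.15). LITAF, a protein of endosomes and the third gene on that side, differed by 0.19 (SE 0.33), or -0.10 without prednisolone 30. IGFBP5, a binding protein of insulin-like growth factors and the third gene before TNP1, differed by -0.24 (SE 0.26). The limma adjusted p values of these 4 genes were 0.884 to 0.935.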

How the data were processed

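Total testis RNA of 15 cattle was measured on single-colour Agilent arrays. The deposited scanner files hold intensity per spot, and per the file headers they come from Feature Extraction 9.5.1.1. The series' design text describes the processed signal as background-subtracted and multiplicatively detrended. A second set of values for these arrays is the authors' deposited table, with intensity on a linear scale, and log2 was taken here of all its columns (0 were left out). How its arrays were scaled is not stated, beyond R 2.11.1 in the submitters' processing notes. Table and scanner file disagree for prednisolone 30.

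Of 42990 spots, outliers were masked, log2 values were averaged over the spots of each of 21475 probes, and the array's 75th percentile was subtracted. A probe was tested when well above background on at least 7 arrays of 1 group (17411 probes). Names came from the scanner files and the RefSeq gene table of ARS-UCD2.0 (16752 probes, of which 9987 by gene number, 3524 by accession, 2846 by description, 307 by symbol and 88 by synonym). The probe with the highest mean stood for a gene. limma 3.58.1 in R 4.3.3 tested prednisolone minus control with Benjamini-Hochberg adjustment over all tested probes, at a threshold of 0.05. Exact permutation tests and correlations (100000 permutations, or exact below 10 animals) used SciPy 1.17.1. All tests were two-sided. limma was tested on simulated data. The number of arrays limits the precision.

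Named genes were the 5 members, the 5 most and 3 least similar genes, the 3 genes with the smallest p of each partner list, and the neighbours. The members and lists were chosen with earlier results of these data known. The labels do not say how animals were assigned or kept. The p-values of group differences therefore set a difference only against the spread between these animals within groups. Without a block, that spread also holds differences between slides and scan days.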

Additional observations from a re-analysis of the deposited data

Results flagged for a closer look

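In 28 groups of member values tested for an animal that stands apart, 5 were found, and chance alone gives about 1 in 20, or 1.4. For PRM1 in the scanner values, prednisolone 30 was high at 8.43, beside 7.71 to 8.02 in the other prednisolone animals. That value is the mean of spots at 4.54 and 12.3. In the authors' deposited table the same animal was low for PRM1, at 17.92 beside 18.53 to 19.07. For TNP1 in the authors' deposited table, prednisolone 31 was low at 16.03, beside 16.56 to 16.99, and its TNP1 spots read 98500 and 43400 intensity units. For PRM2, which was not well above background, prednisolone 30 was high at -4.06, beside -9.77 to -8.91, on an array whose 75th percentile was 49.8 units. Before scaling its PRM2 spots read 2.99 and 2.02 units. The other prednisolone animals read 2.27 to 4.1 and 2.08 to 3.95, so its unscaled signal was not high. For PRM2 in controls, control 24 was high at -7.26, beside -9.80 to -8.76, because of 1 spot that read 26 units. The part of each array's quality in these values was not tested.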

How the results depend on the processing

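TNP2 kept its direction in all 43 alternatives, with 0 members and 0 genes past the adjusted threshold in each of them. The alternatives reuse the same 15 arrays and some repeat an estimate, so their number does not measure support. TNP2 was 0.439 in the main fit, without the filter and with the mean over a gene's probes alike. Leaving out 1 animal at a time gave 0.303 to 0.546 for TNP2, 0.0508 to 0.199 for PRM1 and -0.0197 to 0.179 for TNP1. The PRM1 difference was below 0 in 10 alternatives, at -0.0433 with quantile normalization, -0.0487 with normexp and quantile normalization together, -0.0697 with array weights, -0.112 in the authors' deposited table, and there -0.0329 without control 17 and -0.0144 without prednisolone 30. It was also -0.128 without detrending, -0.103 from the first spot, -0.0337 without saturated spots and -0.265 from the second spot without prednisolone 30. The TNP1 difference was below 0 in 19 alternatives, at -0.0476 with quantile normalization, -0.0337 with median scaling, -0.0801 with normexp and quantile, -0.0197 without control 17, -0.0525 without both animals and -0.00791 without prednisolone 32. It was -0.0358 in the authors' deposited table, and there -0.0463 without control 17 and -0.027 without prednisolone 30. It was -0.0114 with the slide as a block, -0.457 within slide 4, -0.0762 without detrending and -0.0156 from the second spot. Without prednisolone 30 it was -0.0233 without detrending, -0.013 from the second spot, -0.0274 both with a block for scan day and within the first scan day, -0.0275 with quantile normalization and -0.0846 with normexp and quantile. Quantile normalization gave PRM1 the same value in all 7 of these prednisolone animals (SD 0). This method gives each rank on an array 1 fixed value, so these 7 equal values show no spread between animals. The PRM1 difference and correlations with quantile normalization carry this limit. The median difference of all genes was 0.0357, -0.0743 with quantile normalization and 0.101 without detrending. Relative to it TNP2 ranged from -0.0159 (slide 4, 3 arrays) to 0.62. TNP1 and TNP2 correlated at 0.736 without the 2 farthest animals, 0.683 centred on group means and 0.694 from first spots, past the threshold in each, and at 0.376 with quantile normalization, 0.466 from second spots, 0.524 without both animals and 0.077 in the authors' deposited table, past it in none. PRM1 and TNP1 correlated at 0.0189 on 15 arrays, 0.0675 without the 2 farthest animals and 0.0967 from first spots. PRM1 and TNP2 correlated at -0.00362 on 15 arrays, -0.0297 centred on group means, -0.193 with quantile normalization, -0.416 in the authors' deposited table and -0.355 from second spots. At an unadjusted p under 0.05 limma called 349 genes, 855 with array weights, 719 in the authors' deposited table and 183 without detrending. Settings on detrending, single spots and saturated spots, and those that combine 2 choices, were chosen after seeing the data, except leaving out both animals and normexp with quantile. No paired analysis was possible because the groups share no animal numbers. PRM1 near saturation and PRM2 below background limit what these arrays can show of the protamines.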
